A study of Mus musculus with 20 samples.

Results

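A mouse T cell hybridoma carrying a biotin-taggable Notch intracellular domain with the DEP mutation was compared with the same hybridoma carrying an empty CRISPR vector. This asks what the mutant itself accompanies relative to cells with no added Notch fragment. The samples were chosen by their titles, and 8 of the 20 RNA-seq samples of the series entered: 2 DEP mutant samples and all 6 CRISPR controls. The comparison was repeated with control replicates 1 and 2 only. All 8 samples are the line E2-10HA, a hybridoma labelled as mature T cells, and each group is 1 line. The DEP line holds 2 retroviral plasmids, pLXSP-BirA, which encodes the bacterial biotin ligase BirA, and pMY-BioNICD-DEP-IRES-GFP, and it was selected with histidinol and by sorting. The control line holds lentiCRISPRv2, a vector that also encodes Cas9, without a guide, and it was selected with puromycin. Neither group was treated, as far as the labels give a treatment field, which controls 3 to 6 lack. The labels do not say which residues the DEP mutation changes. Mutant NICD, BirA, GFP, Cas9, selection and the history of each line differ together between the groups, and their parts in any difference cannot be told apart. Levels in the other lines of the series, wild-type BioNICD with the same plasmids (n = 2), NICD fused to the oestrogen receptor and kept in ethanol (NICD-ER, n = 2) and the H2A.Z guide samples (n = 6), are given beside the genes that turn on them.

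Notch receptors are cut after they bind a ligand on a neighbouring cell, and the released intracellular domain, NICD, moves to the nucleus. There it joins the DNA-binding protein RBPJ and a Mastermind coactivator (MAML proteins) and switches on target genes. Without NICD, RBPJ recruits corepressors to the same sites. In T cell progenitors Notch1 drives commitment to the T lineage, and its well-known targets include Hes1, Dtx1, Hey1, Nrarp, Il2ra and Myc.

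Total counts were 16371601 and 20725062 in the DEP samples and ranged from 10704131 to 15440584 in the controls. The control samples form 2 sets: replicates 1 and 2, and replicates 3 to 6, which lay in separate processing folders per the file headers, while the DEP samples lay in another, so processing folder and group cannot be told apart. Titles, plasmids and file headers give replicates 3 to 6 as CRISPR controls, whereas their free-text descriptions name BioNICD lines; Notch1 was at control level in all 6. Of 10794 genes, 4595 (42.6%) differed between the control sets by edgeR's quasi-likelihood test at a Benjamini-Hochberg adjusted p of 0.05. Control 1 also stood apart in the 7 fibroblast markers other than Thy1, which summed to 36.7 CPM there (reads of a gene per 1000000 reads of scaled library size) and to at most 0.474 CPM in each of the other 7 samples. Ribosomal Rn45s took 6.73% of counts in control 6 and 2.2% to 3.26% in the other 7 samples. The mean chi-square per gene between 2 libraries, Rn45s included, was 34 to 37.1 for control 6 with each of controls 3 to 5. Among controls 3 to 5 it was 2.99 to 4.43, and between these and controls 1 and 2 it was 21.9 to 25.8. The part of Rn45s in these values was not tested. Among the T cell markers Cd3e, Cd3g, Lck and Thy1 were expressed in both groups, while the receptor subunit gene Cd247 was under 1 CPM in all 8 samples. In all 8 samples 0 counts were found for 3 of 9 B cell markers (Cd79b, Ms4a1 and Pax5), 5 of 8 natural killer markers and 4 of 8 red cell markers, the globins. With the other members, the lists summed to 0.379 to 1.03, 0 to 0.354 and 1.41 to 3.23 CPM per sample. The 9 myeloid markers summed to 24.8 and 28.6 CPM in the DEP samples and to 16.2 to 37 CPM in the controls.

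Notch1 checked the labels. Notch1 (mm9 chromosome 2, 26313422 to 26359342) stood at 658 and 628 CPM in the DEP samples and at 0.913 (lowest), 1.94 (median) and 2.75 (highest) in the controls. The groups did not overlap, and Notch1 rose by 8.36 on the log2 scale (SE 0.16, edgeR adjusted p = 4.81e-09). Counts per gene do not separate the plasmid's NICD from the cell's own Notch1. Wild-type BioNICD stood at 274 and 290 CPM and NICD-ER at 96.4 and 100 CPM, so the DEP samples held the highest level of these groups; the log2 difference from wild-type BioNICD was 1.20 (edgeR adjusted p = 8.47e-06).

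The Notch targets Dtx1, Hey1, Il2ra and Nrarp were each under 2 CPM in the DEP line, in which Notch1 reads were abundant. Of 22 listed targets, 10 passed the filter on low counts, and 5 of these (Hes1, Dtx1, Myc, Bcl2 and Cdkn1a) rose and 0 fell in both fits, that is, against all 6 controls and against controls 1 and 2. Leaving out DEP library 1 or 2 left 1 target called higher, and DESeq2 left 3. Against all 6 controls the median log2 fold change of the 10 was 0.33, beside 0.00 over all genes. The background was high: 28.8% of all genes tested passed against all controls, 52.4% passed against controls 1 and 2, and 12.8% rose and 14.1% fell in both.

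Promoters of 3 of these pathway genes are shown because the values below turn on them: Dtx1, a Notch target, and Lfng and Rbpj. All 3 rose against the controls, Dtx1 by 2.87, Lfng by 0.97 and Rbpj by 0.57 on the log2 scale, though Dtx1 stayed under 2 CPM. Each window runs from 250 bases before to 50 bases after the start site in RefSeq on build GRCm38.p6, which is not the mm9 build of the counts. Capitals mark the core TGGGAA bound by RBPJ, or its reverse complement TTCCCA.
Dtx1, chr5:120711620-120711919, minus strand: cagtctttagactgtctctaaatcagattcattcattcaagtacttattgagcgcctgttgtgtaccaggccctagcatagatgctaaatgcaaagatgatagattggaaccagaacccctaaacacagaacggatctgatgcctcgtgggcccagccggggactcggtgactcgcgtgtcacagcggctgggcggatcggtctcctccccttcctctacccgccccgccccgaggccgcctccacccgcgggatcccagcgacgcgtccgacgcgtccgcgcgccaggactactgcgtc
Lfng, chr5:140607091-140607390, plus strand: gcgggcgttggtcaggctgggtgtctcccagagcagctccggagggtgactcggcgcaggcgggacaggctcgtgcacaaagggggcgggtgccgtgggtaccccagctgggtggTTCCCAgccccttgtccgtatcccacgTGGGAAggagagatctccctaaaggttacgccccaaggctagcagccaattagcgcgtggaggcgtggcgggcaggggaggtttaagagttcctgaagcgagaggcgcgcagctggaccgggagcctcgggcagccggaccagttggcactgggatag
Rbpj, chr5:53590096-53590395, plus strand: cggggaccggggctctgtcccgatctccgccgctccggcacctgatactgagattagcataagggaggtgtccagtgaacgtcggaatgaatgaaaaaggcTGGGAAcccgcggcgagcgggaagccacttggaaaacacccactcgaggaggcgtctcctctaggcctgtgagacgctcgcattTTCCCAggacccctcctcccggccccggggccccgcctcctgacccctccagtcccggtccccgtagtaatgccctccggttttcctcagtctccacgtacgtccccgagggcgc

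The Lfng window holds the core at 135 and 108 bases before the start, the printed Rbpj window at 149 and 65 bases before it, and the Dtx1 window holds none. On either strand, 25.6% of all 32851 promoter windows hold at least 1 core. The 17 listed Notch targets found in the promoter table have 21 windows, of which 7 (33.3%) hold it. For the receptor, ligand and processing list, which includes Lfng, it is 4 of 33 windows (12.1%), and for RBPJ and its cofactors 9 of 31 (29%).

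Dtx1, which encodes the ubiquitin ligase Deltex and is among the most Notch-responsive genes in T cells, stood at 1.59 and 1.83 CPM in the DEP samples and at 0 (lowest), 0.215 (median) and 0.412 (highest) in the controls. The groups did not overlap, and Dtx1 rose by 2.87 on the log2 scale (SE 0.44, edgeR adjusted p = 0.0014). Against controls 1 and 2, which held 1 count of Dtx1 between them, the pooled ratio was 36.6 with a 95% counting interval of 6.34 to 1470. The level remained far below that of the other NICD lines: 1620 and 1640 CPM in wild-type BioNICD (log2 difference of DEP from it -9.87, edgeR adjusted p = 1.27e-16) and 27.3 and 29.4 CPM in NICD-ER.

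Hes1, a transcriptional repressor and direct Notch target, stood at 5.84 and 5.35 CPM in the DEP samples. Controls 1 and 2 had 0.094 and 0.0947 CPM, and controls 3 to 6 had 1.69 to 2.56 CPM. The DEP samples were above all controls, but the sets differ so much that the log2 fold change was 1.82 against all 6 (SE 0.6, edgeR adjusted p = 0.0465) and 1.34 against controls 3 to 6. Against the 2 counts of controls 1 and 2 the pooled ratio was 59 (95% counting interval 16.1 to 491). The call against all 6 was lost under DESeq2, in the fit over all 20 samples and on leaving out either DEP library or any of controls 3, 4, 5 and 6. Wild-type BioNICD stood at 71.2 and 75.2 CPM and NICD-ER at 24.5 and 27.3 CPM. H2A.Z guide samples 1 and 2 had 1.04 and 1.51 CPM of Hes1. Guide samples 3 to 6 had 9.13 to 11.3 CPM, above the DEP samples, with Notch1 at 1.76 to 3.37 CPM over all 6 guide samples.

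Other core targets gave too few counts to test. Hey1, a repressor of the Hes family, had 0.236 and 0.705 CPM in the DEP samples and 0 to 0.263 CPM in the controls, ranges that overlap, beside 433 and 435 CPM in wild-type BioNICD. Il2ra, the alpha chain of the interleukin 2 receptor, had 0.472 and 0.282 CPM against 0 to 0.189 CPM in the controls, beside 534 and 550 CPM in wild-type BioNICD. Nrarp, a feedback inhibitor of the NICD complex, had 0 counts in both DEP samples. Hey2, Heyl, Ptcra and Il7r had 0 counts in all 8 samples, and Hes5, Hes7, Notch3, Igf1r and Cr2 were each under 0.6 CPM in all 8.

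Bcl2, which protects cells from apoptosis, stood at 135 and 139 CPM in the DEP samples, at 21.2 and 23.3 CPM in controls 1 and 2 and at 65 to 77.5 CPM in controls 3 to 6. The DEP samples were above all controls, and Bcl2 rose by 1.30 (SE 0.42, edgeR adjusted p = 0.0425) against all 6 and by 2.63 against controls 1 and 2. The adjusted p was above 0.05 under DESeq2 and on leaving out either DEP library or any of controls 3, 4 and 5. Bcl2 was lower in wild-type BioNICD, at 37.8 and 40.7 CPM. It stood at 153 and 167 CPM in NICD-ER and at 77.9 to 160 CPM in the H2A.Z guide samples.

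Myc, the growth-promoting transcription factor, had 247 and 229 CPM against 147 (lowest), 194 (median) and 204 (highest) in the controls, a rise of 0.38 (SE 0.12, edgeR adjusted p = 0.045). Myc was lower in wild-type BioNICD, at 128 and 132 CPM. It stood at 228 and 231 CPM in NICD-ER and at 225 to 274 CPM in the H2A.Z guide samples. The Myc call was lost on leaving out either DEP library or without any of controls 3, 5 and 6. Cdkn1a, the CDK inhibitor p21, had 79.1 and 80.6 CPM against 60.6, 63 and 68.3, a rise of 0.32 (SE 0.063, edgeR adjusted p = 0.00494) that was lost on leaving out either DEP library. Tcf7, an early T lineage factor, lay between the control sets: 194 and 183 CPM in DEP, 118 in both of controls 1 and 2 and 215 to 235 CPM in controls 3 to 6. Gata3, Ccnd1, Ccnd3 and Hes6 did not pass against all controls, with log2 fold changes of 0.09, 0.34, -0.02 and -0.45. Against 1 control set at a time, Hes6 passed as lower in both (-0.73, edgeR adjusted p = 5.74e-05, against controls 1 and 2, and -0.29, adjusted p = 0.0462, against controls 3 to 6). Gata3 passed as higher against controls 1 and 2 alone (0.19, edgeR adjusted p = 0.0135). Tcf7 passed as higher against controls 1 and 2 (0.68) and as lower against controls 3 to 6 (-0.26).

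**Figure D1:**
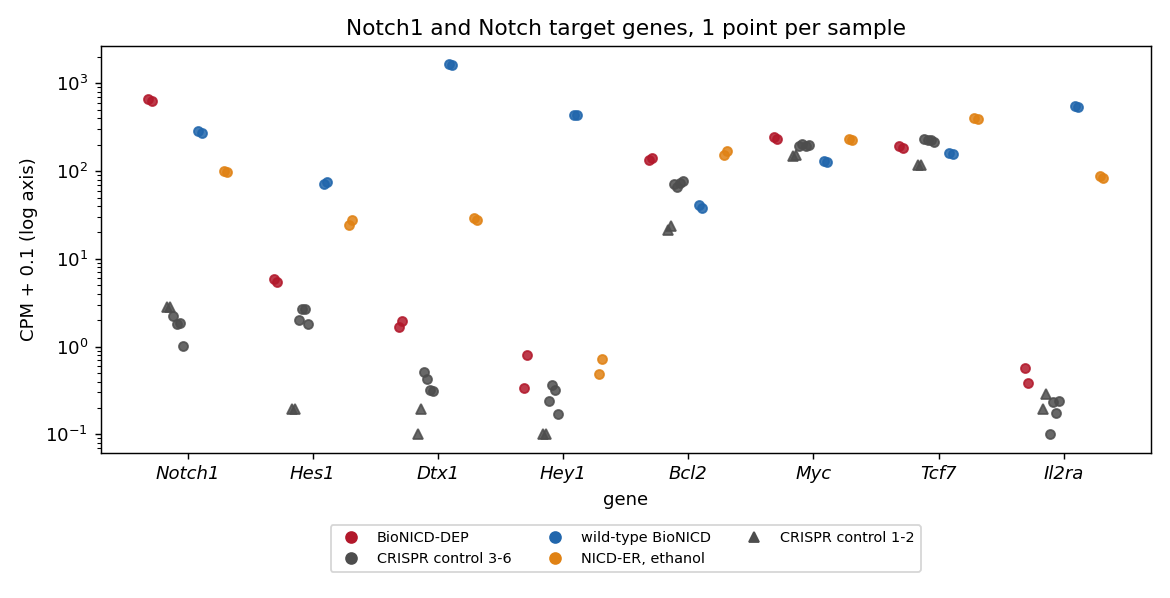
Levels of Notch1 and 7 Notch targets in CPM plus 0.1 on a log axis, 1 point per sample, for the DEP line, the controls (triangles, replicates 1-2; circles, replicates 3-6), wild-type BioNICD and NICD-ER in ethanol. Notch1 is highest in the DEP line (658 and 628 CPM), while Dtx1 (1.59 and 1.83 CPM) and Il2ra stay far below wild-type BioNICD, and Bcl2 and Tcf7 separate the control sets.

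Among genes for Notch receptors, ligands and processing enzymes, 10 of 24 tested rose, 0 fell and 14 did not pass in both fits. The median log2 fold change was 0.13, and over all genes 12.8% rose and 14.1% fell. Notch1, whose reads include the plasmid's NICD, is 1 of the 10. With either DEP library left out, 2 or 3 rose. Lfng, the Fringe glycosyltransferase that tunes which ligands a receptor answers, had 30.2 and 30.9 CPM against 13.4, 15.9 and 17.3 in the controls (lowest, median, highest) and rose by 0.97 (SE 0.11, edgeR adjusted p = 0.000295). Its level was 27.8 and 31.5 CPM in wild-type BioNICD, 42.4 and 43.9 CPM in NICD-ER and 23.4 to 30.5 CPM in the H2A.Z guide samples. The controls were thus the lowest of these groups for Lfng. The ligand gene Jag2 rose by 0.85 and the receptor gene Notch4 by 0.82 from under 4 CPM; both calls ended on leaving out either DEP library, and that of Notch4 also without control 3 or control 6. Furin, the protease that matures the receptor, rose by 0.33. Notch2, the receptor gene with the most counts in the controls, had 182 CPM in DEP and 174 CPM in controls on average, and did not pass (log2 fold change 0.06, edgeR adjusted p = 0.446).

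RBPJ and its cofactors moved in both directions, with 8 of 24 higher and 4 lower in both fits, against 4 or 5 higher and 1 or 2 lower with a single DEP library. Rbpj itself had 53.8 and 53.5 CPM against 33.3, 35.6 and 39, a rise of 0.57 (SE 0.072, edgeR adjusted p = 0.000563), and the DEP samples also lay above the 36.5 and 37 CPM of wild-type BioNICD. Maml3, a Mastermind coactivator, had 23.6 and 22.5 CPM against 10.5, 12.1 and 12.9 and rose by 0.93. Its means were 25.7 CPM in wild-type BioNICD, 25.9 CPM in NICD-ER and 24.3 CPM in the H2A.Z guide samples, so the controls were the lowest of these groups. Among corepressors, Tle3 rose by 0.60 and Spen by 0.49, the latter not on leaving out either DEP library, while the deacetylase gene Hdac3 fell by 0.44 and the H3K4 demethylase gene Kdm5b by 0.34. Genes of H2A.Z exchange complexes moved little: 2 of 25 rose (Mrgbp and Epc1) and 1 fell (Morf4l1), below the background of 12.8% and 14.1%, and none of these calls held on leaving out either DEP library; that of Epc1 also ended without any of controls 2, 3, 4 and 5, and that of Morf4l1, which has near-identical copies, without any of controls 3, 5 and 6.

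Of the 15 largest rises, Notch1 ranked 4 and the other 14 are on none of the Notch lists. In all, 1385 of 10832 genes rose and 1522 fell in both fits; 231 (2.13%) were at least 2-fold higher and 67 (0.619%) at least 2-fold lower in both. Leaving out DEP library 1 or 2 brought the 2907 shared calls to 1063 or 1171, with the lone sample assumed to vary like the controls. Without control 1, which carried the fibroblast markers, 2760 genes were called in both. Among the 15 largest rises and 15 largest falls the groups do not overlap, since the rule for naming them required it.

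**Figure D2:**
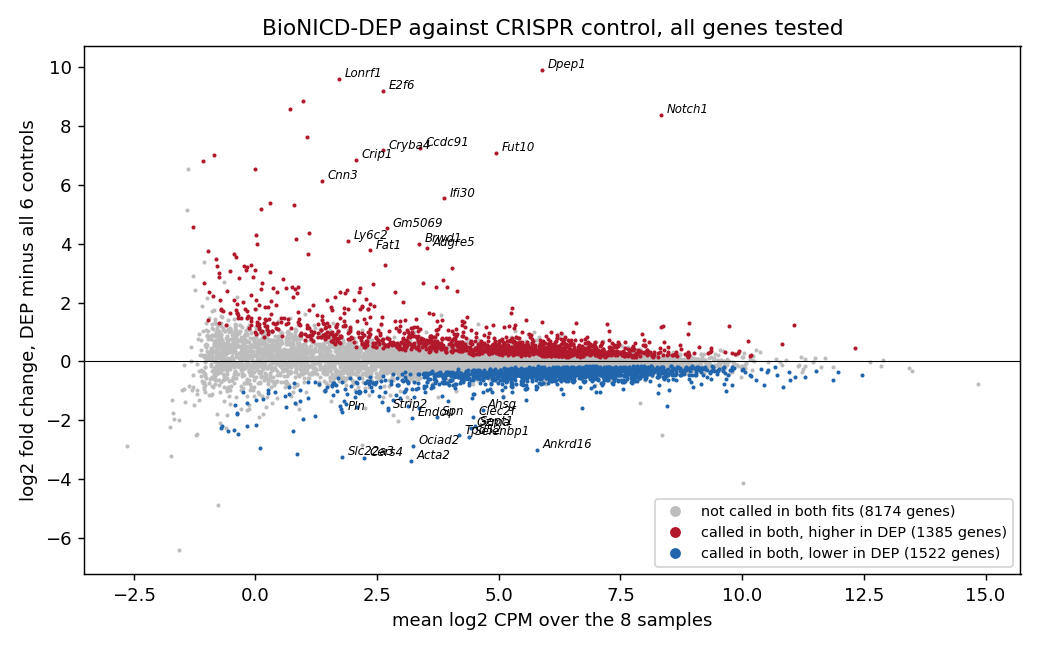
Log2 fold change of DEP minus all 6 controls against the mean log2 CPM of each gene over the 8 samples; red and blue genes passed in both fits. Notch1 and the named genes are labelled; 1385 genes lie above and 1522 below, and fold changes of genes with almost no control counts depend on the fit's prior count.

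Dpep1, a membrane dipeptidase, stood at 119 and 117 CPM in the DEP samples and at 0 (lowest), 0.0717 (median) and 0.284 (highest) in the controls, a log2 difference of 9.90 (SE 0.22, edgeR adjusted p = 6.95e-09). It was also high in the other groups: 48.9 and 55 CPM in wild-type BioNICD, 145 and 154 CPM in NICD-ER and 187 to 382 CPM in the H2A.Z guide samples. Lonrf1, a RING finger gene, had 254 counts in the DEP samples and 0 in the 6 controls, at least 175-fold higher when 3 counts in all are taken as the limit a count of 0 allows. E2f6, a repressor of the E2F family, had 478 counts against 1, a pooled ratio of 986 (95% counting interval 176 to 39000). Both were near their DEP level in NICD-ER, at 6.21 and 7.22 CPM for Lonrf1 and 15.1 and 15.9 CPM for E2f6.

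Further genes near 0 in the controls were likewise higher in the other groups. Fut10, a fucosyltransferase gene, had 63 and 59.9 CPM in DEP, 0 to 0.723 CPM in the controls and 83.3 to 126 CPM in the H2A.Z guide samples. Ccdc91 had 20.8 and 20.4 CPM in DEP and 0 to 0.219 CPM in the controls, with 205 and 206 CPM in NICD-ER and 346 to 509 CPM in the guide samples. Ifi30, a lysosomal thiol reductase, had 30.4 and 26.9 CPM against 0.379 to 0.773, and 25.6 and 25.8 CPM in NICD-ER. Brwd1, a bromodomain gene, had 19.3 and 19.4 CPM against 0.568 to 1.85, and 19 and 19.6 CPM in NICD-ER. Adgre5, the adhesion receptor CD97, had 21.3 and 22 CPM against 1.05 to 1.79, and 17.4 to 24.1 CPM in the guide samples. For all 5 genes the controls were the lowest of the groups listed here.

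Other large rises had varied levels in the other groups. Cryba4 (13.6 and 10.9 CPM against 0 to 0.197) and the predicted gene Gm5069 (13.3 and 11.7 CPM against 0.412 to 0.703) were at like levels in wild-type BioNICD, 11.5 and 13.4 CPM and 8.83 and 9.69 CPM, and at most 1.62 CPM in NICD-ER and the guide samples. Crip1, a small LIM domain protein gene, had 8.14 and 8.45 CPM against 0 to 0.189, near 0 also in the guide samples, which had 0 to 0.224 CPM. In the other NICD lines Crip1 was near its DEP level, at 7.44 and 7.78 CPM in wild-type BioNICD and 10.6 and 11.4 CPM in NICD-ER. Fat1, an atypical cadherin gene, had 9.61 and 9.58 CPM against 0.188 to 0.843 and only 0.643 and 0.711 CPM in wild-type BioNICD, so the DEP line differed from that line by a log2 difference of 3.84 (edgeR adjusted p = 1.32e-07). Cnn3 (4.19 and 5.92 CPM) and Ly6c2 (7.55 and 6.62 CPM) rose from under 0.75 CPM. Both were above the controls in the other groups too: Cnn3 had 1 and 1.3 CPM in wild-type BioNICD, 12.6 and 13.4 CPM in NICD-ER and 23.1 to 39.7 CPM in the guide samples, and Ly6c2 had 10.3 and 10.7, 41.7 and 44.5, and 3.13 to 5.17 CPM in the same order. Cnn3 was not called under DESeq2, and Ly6c2 has the near-identical neighbour Ly6c1, so its reads may be split.

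Among the 15 largest falls, Ankrd16, a cofactor of alanyl-tRNA synthetase, had 11.4 and 12.9 CPM in DEP against 90.6 (lowest), 97.6 (median) and 110 (highest) in the controls, a fall by 3.02 on the log2 scale (SE 0.094, edgeR adjusted p = 1.01e-07). It was at 12.4 to 15.6 CPM in NICD-ER, wild-type BioNICD and the guide samples, so the controls again lay apart from all these groups. Acta2, smooth muscle actin, had 1.83 and 1.41 CPM against 13.7, 15.8 and 20.5 and fell by 3.37 (SE 0.25, edgeR adjusted p = 3.68e-05); control 1, with the fibroblast markers, held 20.3 CPM and control 2, without them, 20.5 CPM. Cers4, a ceramide synthase gene, fell by 3.27, Ociad2 by 2.85, Selenbp1 by 2.55 and Tpd52 by 2.51. Clec2f, a lectin-like receptor gene, had 8.49 and 10.6 CPM against 29.3, 36 and 36.8 and fell by 1.88. Acta2, Cers4, Ociad2, Selenbp1, Tpd52 and Clec2f also averaged below the controls in wild-type BioNICD, NICD-ER and the guide samples. Acta2 had means of 1.41, 2.97 and 5.1 CPM in that order, and Clec2f of 4.17, 2.5 and 0 CPM. Tpd52 in the guide samples (18.7 to 28.6 CPM) overlapped the controls (26.7 to 36.5 CPM).

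Several falls depended on the control set. Gzma, granzyme A, had 6.96 and 8.08 CPM in DEP, 14.1 and 12.6 in controls 1 and 2 and 43.2 to 51 CPM in controls 3 to 6. It fell by 2.25 against all 6 and by 0.81 against controls 1 and 2. Sept1 fell by 2.20 and 0.67, Slc22a3, a cation transporter gene, by 3.23 and 1.10, and Spn, the sialoglycoprotein CD43, by 1.89 and 0.86 in the same order. For these 4 genes leaving out either DEP library ended the call against all controls. Gzma was at 990 and 1060 CPM in wild-type BioNICD, at 3.35 and 4.6 CPM in NICD-ER and at 0.97 to 11.3 CPM in the guide samples. Endou, Pln, Strip2 and Ahsg complete the 15 largest falls, with log2 fold changes of -1.93, -1.72, -1.65 and -1.65; Pln was not called without DEP library 1.

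**Figure D3:**
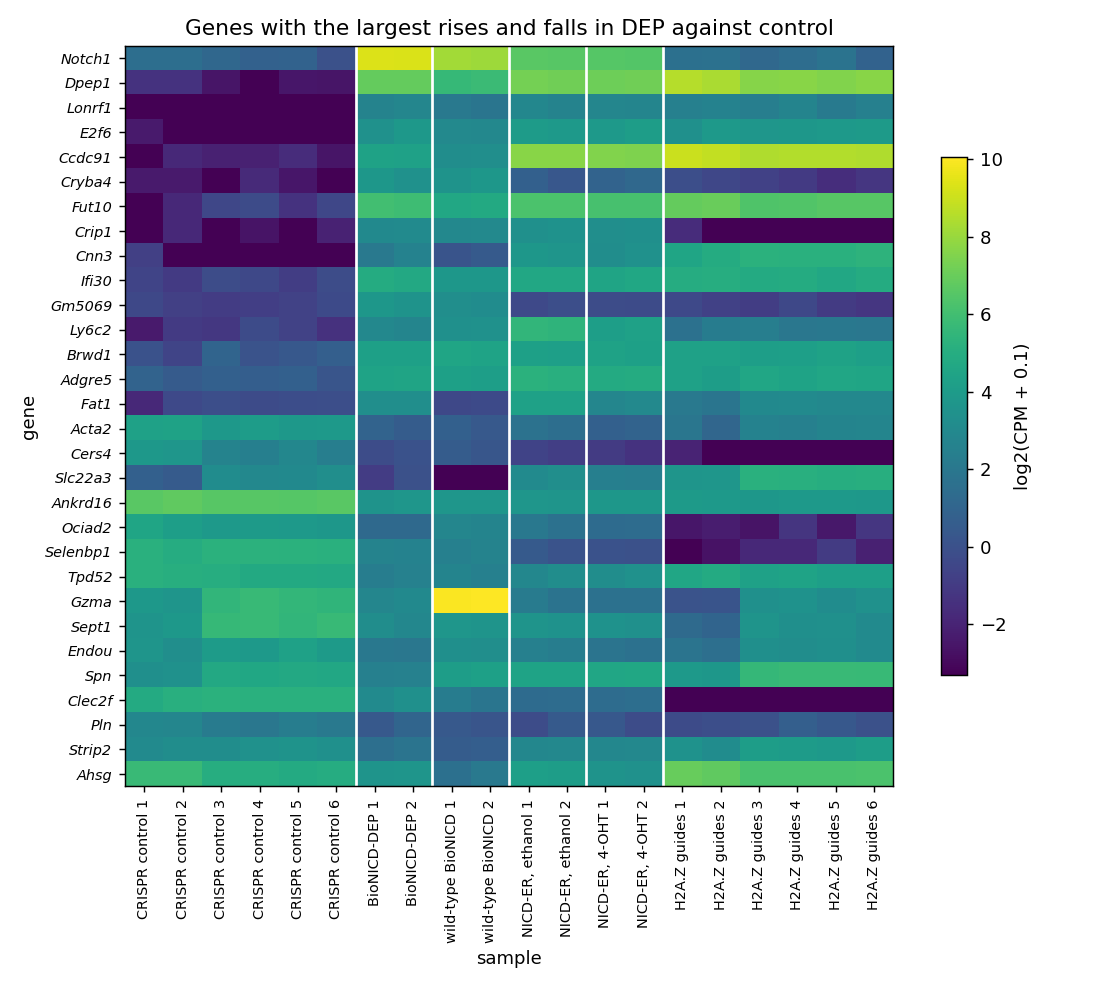
Levels, as log2 of CPM plus 0.1, of Notch1, the other 14 of the 15 largest rises and the 15 largest falls (rows) in all 20 samples of the series (columns, grouped by line). Dpep1, Lonrf1, E2f6, Fut10, Ifi30, Brwd1 and Adgre5 are low in the 6 controls alone, and Gzma and Sept1 differ between controls 1-2 and 3-6.

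DNA replication genes were lower in the DEP line than in the controls as a group. For these and the lists below, the shares over all genes are 12.8% higher and 14.1% lower in both fits. Of 26 G1/S genes tested, 18 fell and 0 rose in both fits, and the median log2 fold change was -0.50 (-0.27 against controls 1 and 2), beside 0.00 over all genes. Their summed level was 3950 and 3960 CPM in the DEP samples and 5060 to 5680 CPM in the controls, so the groups did not overlap. Mcm7, a subunit of the replicative helicase, had 128 and 129 CPM against 187, 206 and 216 in the controls (lowest, median, highest) and fell by 0.67 (SE 0.071, edgeR adjusted p = 0.000227). Its mean was also below the controls in wild-type BioNICD (102 CPM), NICD-ER (129 CPM) and the H2A.Z guide samples (154 CPM). Mcm5, of the same helicase, fell by 0.70, Pola1, the catalytic subunit of DNA polymerase alpha, by 0.67, and Tyms, thymidylate synthase, by 0.72. Not all of these were below the controls in the other lines. Mcm5 averaged 273 CPM in the guide samples against 228 CPM in the controls. Tyms averaged 47.7 CPM in wild-type BioNICD against 47.1 CPM in the controls. Tyms lost its call in the fit over all 20 samples and on leaving out either DEP library or any of controls 3, 4, 5 and 6, Mcm5 without DEP library 2, and 8 of the 26 genes fell with a single DEP library. Pcna, the polymerase clamp, did not pass against all controls (120 and 119 CPM against 104 to 138).

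Of 26 G2/M genes, 11 fell and 0 rose, with a median of -0.15; 4 fell with a single DEP library. Ccnb1, cyclin B1, had 49.5 and 46.6 CPM against 62.3, 70.8 and 75.2 and fell by 0.55 (SE 0.079, edgeR adjusted p = 0.00109). Top2a, the mitotic topoisomerase, fell by 0.47, Bub1b by 0.41 and Bub1 by 0.34, both checkpoint kinases of the spindle; Bub1b lost its call on leaving out either DEP library. Ccnb1, Top2a, Bub1b and Bub1 also averaged below the controls in wild-type BioNICD, NICD-ER and the guide samples. Bub1 had means of 167, 170 and 203 CPM in that order, beside 213 CPM in DEP and 268 CPM in the controls. Mki67, the proliferation antigen, had 1670 and 1830 CPM against 1580 to 1900 and did not pass against all controls. Among cell cycle regulators, 9 of 22 rose and 5 fell in both fits, and 3 to 5 rose and 2 fell with a single DEP library. Ccnd2, a D-type cyclin, rose by 0.57 and Mnt, a repressor that competes with Myc for its partner, by 0.50. Mxd1, of the same repressor class, rose by 0.66 and Cdkn2d, a CDK4 and CDK6 inhibitor, fell by 0.69; neither call held on leaving out either DEP library, and leaving out controls 3, 4 or 5 (Mxd1) or control 5 (Cdkn2d) also ended them, as did DESeq2 for Cdkn2d.

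Cholesterol synthesis genes fell as well: 13 of 22 fell and 0 rose in both fits, with a median of -0.25; 5 or 6 fell with a single DEP library, and 2 rose under upper quartile scaling. Lss, lanosterol synthase, had 433 and 416 CPM against 594, 772 and 805 and fell by 0.77 (SE 0.13, edgeR adjusted p = 0.00207). Hsd17b7 fell by 0.60, Tm7sf2 by 0.54 and Stard4, a sterol carrier, by 0.47; Stard4 lost its call on leaving out either DEP library and Tm7sf2 without DEP library 2. Lss, Hsd17b7, Tm7sf2 and Stard4 also averaged below the controls in wild-type BioNICD, NICD-ER and the guide samples. Lss had means of 276, 229 and 269 CPM in that order, beside 424 CPM in DEP. Insig1, which holds back the sterol sensor, had 883 and 873 CPM against 590 to 808 and did not pass against all controls (log2 fold change 0.35, edgeR adjusted p = 0.0541).

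Of 25 genes of glycolysis and the hypoxia response, tested as 1 list, 13 fell and 6 rose; with a single DEP library 9 or 10 fell and 3 rose. Ldha, lactate dehydrogenase A, had 1290 and 1340 CPM against 2270, 2330 and 2520 and fell by 0.85 (SE 0.062, edgeR adjusted p = 3.54e-05). Its mean was also below the controls in wild-type BioNICD (1250 CPM), NICD-ER (1000 CPM) and the guide samples (1610 CPM). Vegfa, a hypoxia-induced growth factor, had 413 and 414 CPM against 245, 260 and 275 and rose by 0.66, and it was higher still in wild-type BioNICD, at 1160 and 1170 CPM. Eno2, an enolase, had 75 counts against 1, a pooled ratio of 155 (95% counting interval 26.9 to 6190), and it too was high in NICD-ER and the guide samples, at 5.43 to 15.5 CPM. Enzymes with near-identical copies in the genome are uncertain here: Gapdh stood at 6.81 to 11 CPM and Eno1 at most at 0.0703 CPM in the 8 samples, and Pgam1, which fell by 0.83, lost its call without DEP library 1.

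Genes of T cell regulation more often rose than fell, where over all genes 12.8% rose and 14.1% fell in both fits. Of 24 T cell transcription factor genes, 11 rose and 1 fell in both fits, with a median of 0.21; with a single DEP library, 3 or 4 rose and 0 fell. Maf, a factor of helper cell differentiation, had 61 and 58.8 CPM against 14.2, 17 and 19.8 and rose by 1.80 (SE 0.097, edgeR adjusted p = 5.01e-06). It had 31.5 and 31.6 CPM in wild-type BioNICD, 48.2 and 52.8 CPM in NICD-ER and 39 to 55.7 CPM in the guide samples. The controls were thus the lowest of these groups for Maf. Klf2, which keeps T cells quiescent and circulating, rose by 1.38, Bcl6 by 0.98 and Id2, an inhibitor of E proteins, by 0.89. Bcl6 and Id2 lost their calls on leaving out either DEP library, and Id2 also without any of controls 3, 4, 5 and 6.

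Surface receptors rose in part, with 5 of 14 costimulatory and inhibitory receptors and 5 of 18 trafficking genes higher and 0 lower in either list. The shares over all genes were 12.8% higher and 14.1% lower. Pdcd1, the inhibitory receptor PD-1, had 675 and 700 CPM in DEP, 165 and 158 CPM in controls 1 and 2 and 327 to 339 CPM in controls 3 to 6. It rose by 1.31 against all 6 (SE 0.28, edgeR adjusted p = 0.0079), a call lost on leaving out either DEP library, and by 2.10 against controls 1 and 2. Pdcd1 was at 128 and 130 CPM in wild-type BioNICD, at 959 and 982 CPM in NICD-ER and at 952 to 1060 CPM in the H2A.Z guide samples. Tnfrsf9, the costimulatory receptor 4-1BB, had 469 and 457 CPM against 176, 195 and 221 and rose by 1.22. Cd84 rose by 1.49 and Cd69, an early activation marker, by 0.87.

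The chemokine receptor gene Ccr2 had 27.9 and 31.1 CPM against 0.663, 3.84 and 5.06 in the controls and rose by 3.16 (SE 0.43, edgeR adjusted p = 0.000791). Ccr8 rose by 1.35 and Ccr4 by 1.07, the latter not on leaving out either DEP library. Ccr2 was at 2.38 and 2.49 CPM in wild-type BioNICD and at 42.3 and 47.5 CPM in NICD-ER. Il12rb1, a subunit of the interleukin 12 receptor, rose by 2.42 to 6.19 and 6.34 CPM. It averaged 57.1 CPM in wild-type BioNICD, 27.7 CPM in NICD-ER and 32.3 CPM in the H2A.Z guide samples. In its list of cytokine receptors and JAK kinases 4 of 18 rose and 1 fell, beside 12.8% and 14.1% over all genes. Leaving out DEP library 1 or 2 left 2 or 1 of these higher and 0 lower.

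Of 9 effector genes tested, 4 rose and 1, Gzma, fell; with a single DEP library 2 rose and 0 fell. Gzmb, granzyme B, had 19.1 and 18.3 CPM in DEP against 1.46, 2.39 and 4.98 and rose by 2.67 (SE 0.33, edgeR adjusted p = 0.00054), beside 4960 and 5060 CPM in wild-type BioNICD. Lta, lymphotoxin alpha, rose by 1.00 and Tnf by 0.49; Lta lost its call without DEP library 2 and Tnf without DEP library 1. T cell receptor signalling genes moved less, with 1 of 21 higher and 2 lower, both below the 12.8% and 14.1% over all genes. Cd4 had 1.65 and 1.69 CPM against 3.67, 5.37 and 6 and fell by 1.61, and Lck, the kinase that starts receptor signalling, had 98.3 and 103 CPM against 161, 181 and 187 and fell by 0.81 (SE 0.073, edgeR adjusted p = 0.000116). Ptpn22, a phosphatase that restrains it, rose by 0.41 and lost its call on leaving out either DEP library.

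Some interferon-linked genes rose, and most members of both lists did not pass. Of 28 interferon-stimulated genes 6 rose and 0 fell, and of 11 interferon-inducible GTPases (the GBP and IRG families) 5 rose and 0 fell; with a single DEP library 2 or 3 and 2 rose. Gbp7 had 27.5 and 27.2 CPM against 8.08, 10.9 and 12.2 and rose by 1.36 (SE 0.13, edgeR adjusted p = 0.00013). Xaf1, an antagonist of inhibitors of apoptosis, rose by 1.93 to 3.54 and 3.71 CPM, and Ifih1, a sensor of viral RNA, by 1.62 to 1.65 and 2.16 CPM, a call lost on leaving out either DEP library. Each was higher still in wild-type BioNICD, with means of 353 CPM for Gbp7, 36.6 CPM for Xaf1 and 38.7 CPM for Ifih1. In MHC class I presentation 4 of 19 rose, among them B2m by 0.68, and 3 fell, among them the immunoproteasome gene Psmb9 by 0.66, beside 12.8% and 14.1% over all genes. Leaving out DEP library 1 or 2 left 2 or 1 higher and 1 lower.

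Immediate early genes (7 of 21 higher, 0 lower) and NF-kB genes (6 of 22 higher, 1 lower) also rose more often than they fell; with a single DEP library 2 or 3 and 1 rose. Egr1 had 7.31 and 4.98 CPM against 1.37, 2.48 and 2.85 and rose by 1.37, a call lost without DEP library 1. Bcl3, a nuclear IkB protein gene, rose by 1.21, lost without DEP library 2, and Nfkbia, the feedback inhibitor IkB alpha, by 0.64, lost without either. Of 19 apoptosis genes 4 rose (1 with a single DEP library), among them the caspase 8 inhibitor Cflar by 0.71, and 3 fell, among them Apaf1 by 0.44, a call lost on leaving out either DEP library. Of 20 genes for histone variants and DNA or histone modifiers 3 rose and 6 fell, and with a single DEP library 1 or 2 rose and 2 fell. Tet1, which oxidises methylated cytosine, had 4.13 and 4.93 CPM against 11.4, 12.7 and 16.4 and fell by 1.52 (SE 0.17, edgeR adjusted p = 0.000325), with 3.22 and 4.31 CPM in wild-type BioNICD. For all lists of this paragraph the shares over all genes were 12.8% higher and 14.1% lower.

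Beside 12.8% higher and 14.1% lower over all genes, calls were counted in the lists for STAT and SOCS genes (3 of 15 higher, 1 lower), the ATF4 and unfolded protein response (5 of 25 higher, 2 lower), p53 targets (1 of 14 higher, 2 lower) and ribosome biogenesis (0 of 25 higher, 2 lower). With a single DEP library 0 or 1 STAT and SOCS gene and 2 ATF4 and unfolded protein response genes were called higher. In these, Cish rose by 1.22 with overlapping groups (1.69 and 3.66 CPM against 0.568 to 1.85) and lost its call on leaving out either DEP library or any of controls 1, 2, 4, 5 and 6, Chac1 rose by 0.51, Bax fell by 0.41, a call lost without DEP library 2, and Npm1 fell by 0.36, lost without DEP library 1. Cpa3, a mast cell protease gene, had 378 and 381 CPM against 546 to 631 and fell by 0.61, while the mast cell genes Mcpt4, Cma1 and Tpsb2 had 0 counts in all 8 samples.

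**Figure D4:**
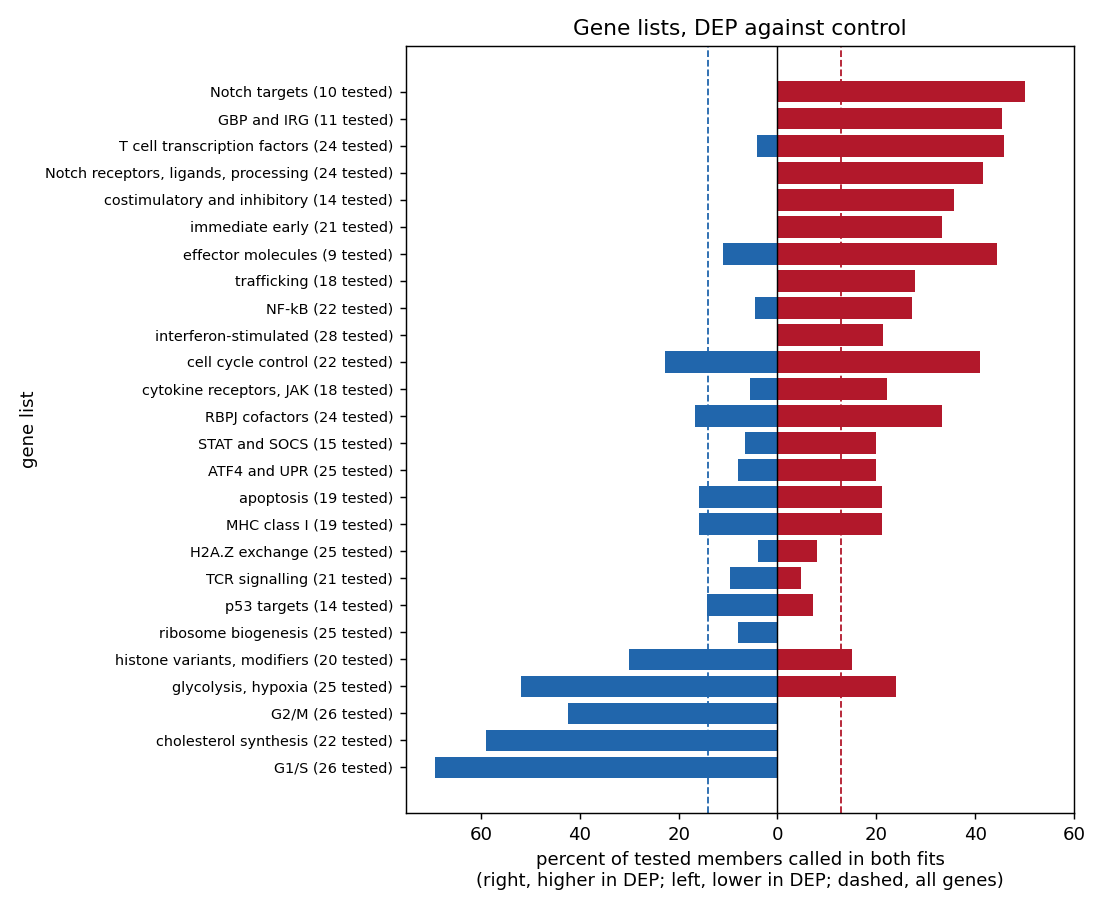
Percent of the tested members of each of 26 gene lists that were higher (right) or lower (left) in the DEP line in both fits; dashed lines give the same over all genes, 12.8% higher and 14.1% lower. G1/S, cholesterol synthesis, glycolysis and G2/M lie to the left, and Notch targets, GBP and IRG, T cell transcription factors and Notch receptors, which include Notch1 itself, to the right.

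By chromosome, the median log2 fold change lay within 0.1 of 0 except on chromosomes 12 and 14. Chromosome 12 had a median of 0.27 over 385 genes, of which 81.3% were above 0, and 0.28 against controls 1 and 2. The corresponding medians were 0.07 against wild-type BioNICD and 0.00 against NICD-ER. Chromosome 14 had a median of -0.15 over 367 genes (-0.23 against controls 1 and 2, -0.12 against wild-type BioNICD and -0.19 against NICD-ER). E2f6, Crip1, Jag2, Id2, Traf3 and Nfkbia lie on chromosome 12, and Gzmb on chromosome 14. Chromosome 8, which holds 5.26% of the genes tested, carried 6 of the 15 largest rises (Dpep1, Lonrf1, Fut10, Ifi30, Adgre5 and Fat1), a count seen after the values; its median was 0.08 against the controls and -0.30 against NICD-ER. These medians are a description, with no test.

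**Figure D5:**
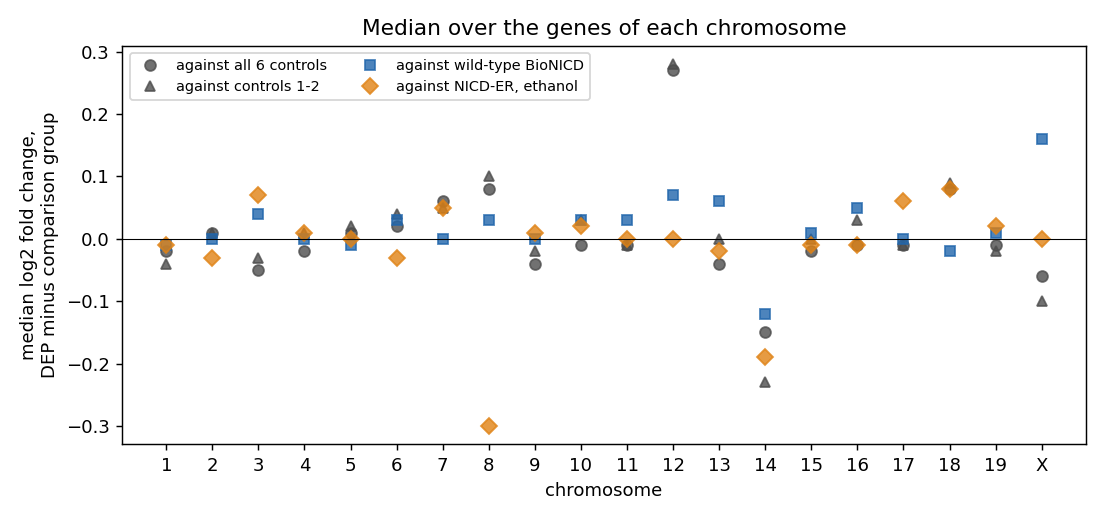
Median log2 fold change of the genes of each chromosome, DEP minus all 6 controls (circles), controls 1-2 (triangles), wild-type BioNICD (squares) and NICD-ER in ethanol (diamonds). Chromosome 12 stands at 0.27 and 0.28 against the controls and at 0.07 and 0.00 against the other NICD lines; chromosome 14 lies below 0 in every comparison.

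Against the line with the same plasmids and wild-type NICD, 4670 of 11988 genes (39.0%) differed in a fit over all 20 samples, and 2962 (24.7%) differed from NICD-ER in ethanol; these counts share the DEP samples and are given side by side. Of the 4670, 318 were at least 2-fold higher and 1208 at least 2-fold lower in DEP, and of the 2962, 174 and 427.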

How the data were processed

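RNA-seq libraries of ribosome-depleted RNA were made with a stranded kit, per the labels' protocols. The authors counted reads per gene with featureCounts 1.5.0 on an mm9 annotation, per the file headers, which show no strand option, so antisense and overlapping genes cannot be separated; the deposited values are raw counts for 24391 genes. FastQC, Trimmomatic, STAR and DESeq2 are named in the submitters' processing notes, with versions not given in the sources used here. Here the counts were scaled by TMM and tested with edgeR 4.0.16 (R 4.3.3, filterByExpr, quasi-likelihood test, Benjamini-Hochberg over all genes tested, threshold 0.05); DESeq2 1.42.0 was an alternative. Genes in the text were Notch1, all listed Notch targets, the 15 largest rises and 15 largest falls called in both fits with non-overlapping samples and at least 5 CPM in the higher group, and up to 4 called members per list with the largest change; Notch2, Furin, Hdac3, Kdm5b, Pcna, Mki67, Insig1, Gapdh, Eno1 and the markers were added after their values were seen. The members and lists were chosen with earlier results of these data known. CPM are TMM-scaled over all 20 samples and are not divided by gene length, so levels of different genes are not compared. Pooled-count intervals and the floor of 3 counts cover counting error only. No source says that replicates came from separate cultures; the p-values therefore describe the spread among the libraries at hand, part of which may be technical. No pair of replicates agreed within sampling noise. The scripts were tested on simulated data.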

Additional observations from a re-analysis of the deposited data

Results flagged for a closer look

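In 2 of 122 named genes with enough counts, 1 of the 6 controls lay far from the others; chance alone would give about 1 in 20. Fat1 was at 0.188 CPM in control 1 and at 0.663 to 0.843 CPM in the other 5 controls. Clec2f was at 29.3 CPM in control 1 and at 34.9 to 36.8 CPM in the other 5. In both genes all 6 controls lay on the same side of the DEP samples, and both kept their call without control 1. Control 1 is the library with the fibroblast markers; their part in these values was not tested.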

How the results depend on the processing

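Against all 6 controls 3188 genes were called. The count was 5672 with controls 1-2 only, 6133 with controls 3-6 only, 5784 with the control set as a covariate, and 5448 with the replicate number as a block in DEP and control replicates 1 and 2; the samples share only a number (correlation of deviations 0.026), not a pairing. It was 3456 with DESeq2, 3206 with upper quartile scaling and 2956 without the filter. Leaving out 1 library gave 1084 (without DEP 1) to 3569 for all controls, 3573 (without DEP 2) to 5463 for controls 1-2, 1063 (without DEP 1) to 2769 for both fits, and 85 to 186 for the 197 calls within lists, of which 24 were at least 2-fold in both. Tcf7 changed from -0.01 to 0.68 with controls 1-2, 0.67 with the set covariate and 0.68 with the replicate block. Of 126 named genes called, 65 never lost the call in 18 alternatives. Only 2 DEP samples of 1 line limit every call.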
